A study of Mus musculus with 15 samples.

Results

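Tfrc encodes the transferrin receptor (also called CD71), and was followed here through liver development as 1 gene, represented by 1 probe among the 59709 probes that are not controls. The probe was taken by its RefSeq accession, NM_011638.3, and printed in 20 copies (spots) on every array. The livers came from C57BL/6 mice, an inbred laboratory strain. Fetal livers were taken at E12.5, at E14.5 and at E17.5 (days of embryonic development), and later ones from newborn (neonatal) animals and from adults aged 8 weeks, with 3 arrays per stage and 15 in all. No treatment or engineered allele is named for any stage. The labels say neither whether livers were pooled nor whether replicates are different animals, so each p-value below reflects the spread among these samples alone, and that spread may be technical.

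The transferrin receptor binds iron-loaded transferrin at the cell surface and carries it into the cell by endocytosis. Red cell precursors display it in large numbers because haemoglobin synthesis consumes iron, and the fetal liver is the main site where such precursors mature until the bone marrow takes over. Most dividing cells also carry the receptor, and its messenger RNA is stabilised by iron regulatory proteins when a cell is short of iron. Tfrc is also widely used as a reference gene in expression assays.

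The gene lies on mouse chromosome 16, and RefSeq (assembly GRCm38.p6) gives it 2 transcription starts. The window around the downstream start, chr16:32608872-32609171 on the plus strand, is shown because it is the promoter from which the gene's RNA may start, and its letters hold the motifs described below. It runs from 250 bases before the start to 50 bases after it, and capitals mark the matches.
Tfrc promoter: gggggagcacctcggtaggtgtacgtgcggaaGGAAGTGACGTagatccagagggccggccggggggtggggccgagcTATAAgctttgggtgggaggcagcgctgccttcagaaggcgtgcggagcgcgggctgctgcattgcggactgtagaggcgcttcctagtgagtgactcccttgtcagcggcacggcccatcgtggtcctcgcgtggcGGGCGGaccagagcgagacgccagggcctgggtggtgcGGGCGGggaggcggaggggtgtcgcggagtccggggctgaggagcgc
Counted from 1 at the window's 5′ end, GGAAGT, the core bound by ETS factors, starts at base 33 and TGACGT, the core bound by ATF and CREB factors, at base 38, so that they share a T. Both also fall in the window of the upstream start, at bases 259 and 264, which lie after that start. On either strand GGAAGT occurs in 23.8% and TGACGT in 7.51% of all 32851 RefSeq windows of this length. TATAA starts at base 79 (24.9% of windows) and GGGCGG, a GC box, at bases 216 and 254 (35.7%), the last of these after the start. AGATAA and TGATAA, forms of the sequence bound by GATA factors, were not found on either strand of the window (11.2% and 9.05% of windows hold them). These matches are descriptions of the letters, and the array does not tell which start was used.

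Array quality bears on the reading of some stages. E17.5 replicate 1 had 80.9% of its spots and 55.8% of its negative controls well above background, whereas the other 14 arrays had 50.9% to 62.9% of spots and 4.0% to 9.58% of negative controls there. The arrays were read in 2 scans: the first held E12.5, E14.5 and E17.5 replicates 1 and 2, and the second held E17.5 replicate 3 with the neonatal and adult arrays. Stage and scan can therefore be separated through E17.5 replicate 3 alone.

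Tfrc was bright through fetal life and at birth and low in the adult. The processed signal is background-subtracted and, on 6 arrays of the second scan, also multiplicatively detrended. In the scanner's linear intensity units it was 112036, 113800 and 107146 in E12.5 replicates 1, 2 and 3. At E14.5 it was 135257, 133510 and 122691. At E17.5 it was 79969, 67102 and 123221, so the array of the second scan lay at the E14.5 level and the other 2 below it. Neonatal livers gave 64188, 69433 and 60793. Adult livers gave 9088, 11436 and 4824, and the highest adult array was below the lowest of the 12 earlier ones.

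The 20 spots of an array are repeat readings of 1 labelled RNA sample, not replicates of a stage. Of 300 Tfrc spots over the 15 arrays, all 300 were well above background and none was saturated. The brightest spot used read 151911, against a saturation limit of at least 778171, so the fetal signals were not capped by the scanner. The scanner software marked 18 spots as outliers and these were left out. Among the remaining spots of an array the coefficient of variation was 3.21% to 12.2% (median 5.14%), the highest on E17.5 replicate 2, whose spots read 50947 to 79379. On the log2 scale the median SD among spots of an array was 0.07, whereas the pooled SD between arrays of a stage was 0.36 before any scaling. The SD between arrays was highest in adult liver (0.64) and at E17.5 (0.45). At E12.5 and E14.5 the SD between arrays was 0.045 and 0.076, and the average SD among spots of an array was 0.083 and 0.092. The SD between arrays is of means over up to 20 spots and that among spots is of single spots. They therefore do not compare like with like.

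**Figure D1:**
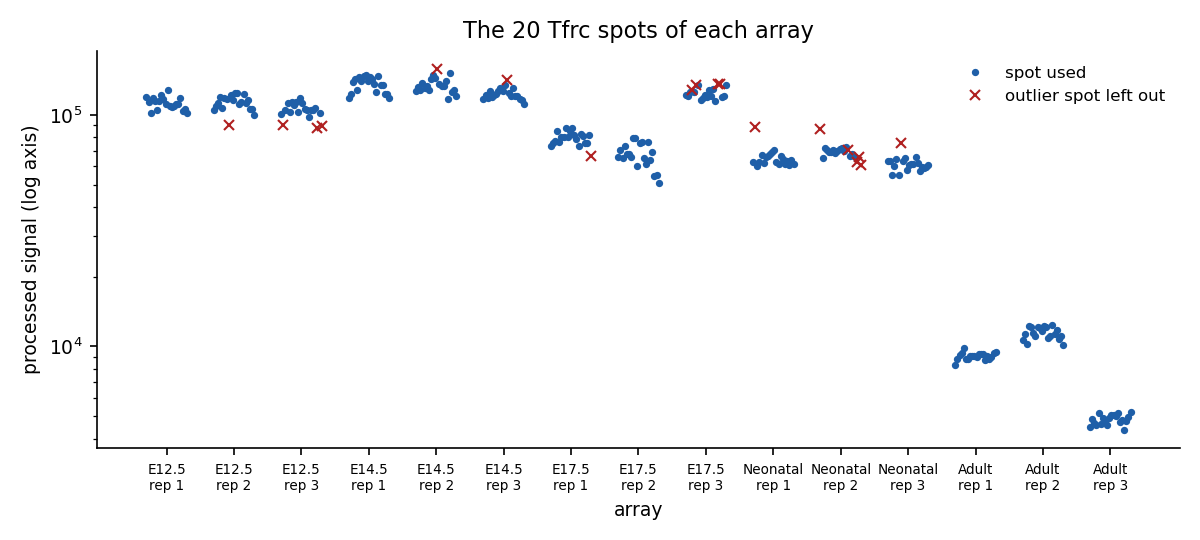
Processed signal of the 20 Tfrc spots on each of the 15 arrays, on a log axis; dots are spots used and crosses are the 18 outlier spots left out. Every adult spot is at 12390 or below and every used spot of the earlier stages is at 50947 or above.

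For comparisons between arrays, log2 of the mean spot signal was set relative to each array's own 75th percentile over all probes, a usual scaling for 1-colour arrays. On this scale Tfrc read 9.50, 8.62 and 8.54 at E12.5, a mean of 8.89 ± 0.53 (SD, n = 3). At E14.5 it read 9.04, 8.79 and 8.76, a mean of 8.86 ± 0.15. At E17.5 it read 8.10, 8.39 and 9.27, a mean of 8.59 ± 0.61, and these values span those of E14.5 and overlap those of neonatal liver. Neonatal livers read 8.24, 8.27 and 7.98, a mean of 8.16 ± 0.16, and adult livers 5.81, 5.63 and 5.06, a mean of 5.50 ± 0.39. The order of the means on this scale was E12.5, E14.5, E17.5, neonatal, adult, from high to low. The order of the first 2 depended on the scaling. E14.5 averaged above E12.5 with no scaling (16.99 against 16.76) and after quantile normalization (16.85 against 16.62). On the scale used here the first 3 stages overlapped one another. Neonatal values overlapped those of E17.5 and lay below all of E12.5 and E14.5. A gap of 2.17 separated the highest adult array from the lowest earlier one. All 3 adult arrays lay below all 12 others in 10.3% of the features with a value on every array.

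**Figure D2:**
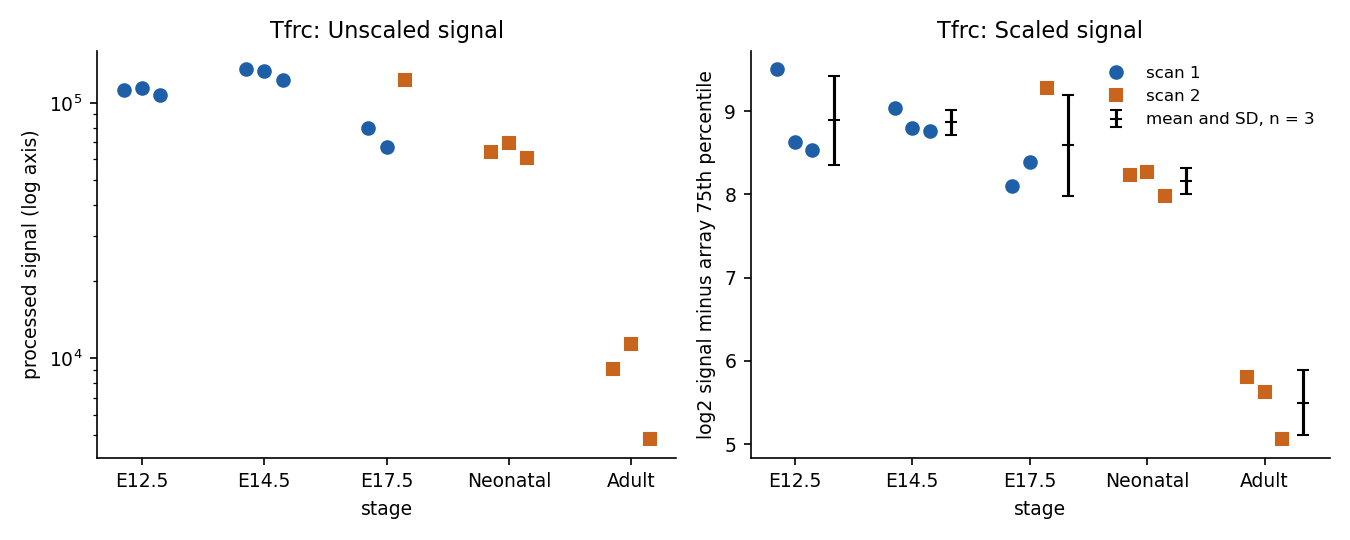
Tfrc on each array by stage, left as processed signal on a log axis and right as log2 signal minus the array's 75th percentile, with the stage mean and SD (n = 3); circles are arrays of the first scan and squares of the second. The adult arrays stand apart on both scales, and E17.5 replicate 3, the E17.5 array of the second scan, reads 9.27 where the other 2 read 8.10 and 8.39.

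The main change was the fall between birth and adulthood. Adult livers averaged 5.50 ± 0.39 and neonatal livers 8.16 ± 0.16, and Tfrc fell by 2.66 ± 0.34 on the log2 scale (SE), which is 6.33-fold (95% interval 3.83 to 10.5), with limma's adjusted p = 4.67e-05. Both stages lay in the second scan, so this comparison does not cross scans. A fit within that scan uses the same neonatal and adult arrays, so its difference of −2.66 is the same by construction and is no repeat of the result. Here a call means an adjusted p below 0.05 among 37361 features, each of which was detected above background in all replicates of some stage. In this comparison 25.9% of features were called and 13.4% were called lower, so a call alone does not single out a gene. The median change over all features was 0.17, and the Tfrc change was the 1045th lowest, within the lowest 2.8%.

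Against the fetal stages the adult level was lower still. The adult minus E12.5 difference was −3.39 ± 0.34, 10.5-fold lower (limma's adjusted p = 1.78e-06), in a comparison where 50.8% of features were called. The adult minus E14.5 difference was −3.37 ± 0.34, 10.3-fold lower (adjusted p = 1.99e-06, 49.6% called), and the adult minus E17.5 difference was −3.09 ± 0.34, 8.52-fold lower (adjusted p = 7.69e-06, 35.4% called). The 4 adult comparisons share the adult arrays and are not independent of one another. With the scan as a block the adult differences from E12.5 and E14.5 were −4.41 and −4.39, both called. The scan term of that fit rests only on how far E17.5 replicate 3 lay from the other E17.5 arrays. Those arrays include the array whose negative controls were often well above background, so these calls are not an independent check on the scan. Within the second scan the difference from E17.5 was −3.77, resting on E17.5 replicate 3 alone. Its adjusted p of 0.00032 assumes that this lone array varies as the neonatal and adult arrays do, so it carries no spread of E17.5 itself.

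Before adulthood no pair of stages was called. The E14.5 minus E12.5 difference was −0.023 ± 0.34 (95% interval −0.75 to 0.70, adjusted p = 0.991), in a comparison where 4.93% of features were called. E17.5 differed from E14.5 by −0.28 ± 0.34 (interval −1.0 to 0.45, adjusted p = 0.669, 7.11% called) and from E12.5 by −0.30 ± 0.34 (adjusted p = 0.59, 17.0% called). Neonatal liver differed from E17.5 by −0.43 ± 0.34 (interval −1.15 to 0.30, adjusted p = 0.399, 18.1% called). The intervals admit differences as large as their ends, so the stages are not shown to be alike.

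Neonatal liver was nearest to a call against the first 2 stages. It averaged 8.16 ± 0.16 against 8.89 ± 0.53 at E12.5, a difference of −0.73 ± 0.34 (interval −1.45 to −0.0015, adjusted p = 0.0993, 41.9% of features called), and all 3 neonatal arrays lay below all 3 E12.5 arrays, as in 30.9% of features. Against E14.5, at 8.86 ± 0.15, the difference was −0.70 ± 0.34 (adjusted p = 0.107, 43.0% called), again with no overlap, as in 35.9% of features. Over 14 alternative settings the difference from E12.5 was called in 5 and that from E14.5 in 8. Both were called after quantile normalization (−0.80 and −1.03), after normexp background correction (−0.73 and −0.80) and with the scan as a block (−1.75 and −1.73). The scan term of that last fit rests on the E17.5 arrays alone, through how far replicate 3 lay from the others. Its calls are therefore not an independent check on the scan. With array weights the difference from E12.5 was −0.48 and not called (adjusted p = 0.151). Without E12.5 replicate 1 it was −0.42 (adjusted p = 0.34). Of the 15 fits that left out 1 array, only that without E17.5 replicate 3 called the difference from E12.5 (unchanged at −0.73, adjusted p = 0.0477). The slope over E12.5, E14.5, E17.5 and neonatal liver was −0.25 ± 0.11 per step (adjusted p = 0.0743, 46.4% called), and −0.28 without that array (adjusted p = 0.0203). Over all 5 stages limma's moderated F test gave an adjusted p of 5.08e-06, with 61.0% of features called.

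**Figure D3:**
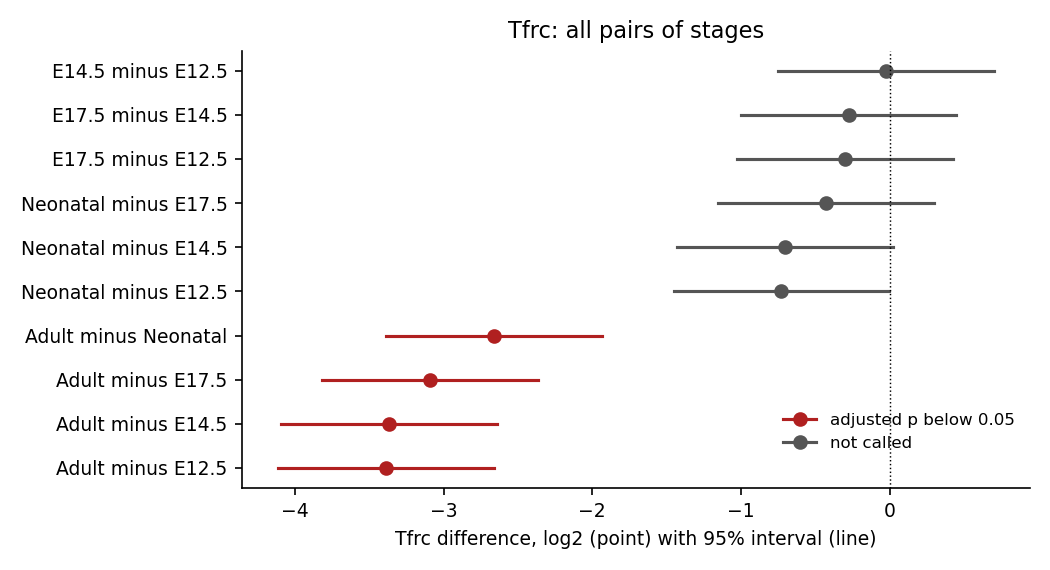
Tfrc differences between all 10 pairs of stages (later minus earlier, log2), with 95% intervals from the fit over 15 arrays. The 4 pairs with adult liver lie between −3.39 and −2.66 and are called, and the other 6 lie between −0.73 and −0.023 and are not.

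At E17.5 the array of the second scan read higher than both arrays of the first. Within the first scan E17.5 replicates 1 and 2 differed from E14.5 by −0.62 (adjusted p = 0.342) and from E12.5 by −0.64 (adjusted p = 0.241), and within the second scan neonatal liver differed from E17.5 replicate 3 by −1.11 (adjusted p = 0.122, again with the spread of the neonatal and adult arrays alone). Leaving out that array gave a neonatal minus E17.5 difference of −0.09, and leaving out replicate 1 gave −0.67. Neonatal and adult liver share no scan with E12.5 or E14.5. For those comparisons stage and scan can be separated only through the difference among the E17.5 arrays. The comparisons of E17.5 can be made within a scan, but on few arrays, so stage and scan are not fully told apart there either.

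Tfrc was 1 of 15 genes given 20 spots per array, most of them reference genes of expression assays, which allows a comparison at equal spot numbers. Its stage means spanned 3.39 log2 units, second to Gk, a glycerol kinase, at 3.65. Those of Actb (cytoplasmic actin) spanned 0.29 and those of Ppia (cyclophilin A) 0.31, neither called by the F test. Of the 14 other genes 5 were called by the F test, which called 61.0% of all features. From neonatal to adult liver, where 13.4% of all features were called lower, 2 of the 14 were, Tuba1b (an alpha-tubulin, −1.57 ± 0.29, adjusted p = 0.0013) and Rpl13a (a ribosomal protein, −1.22 ± 0.23, adjusted p = 0.00161). B2m, the light chain of MHC class I, was called higher (1.24 ± 0.32, adjusted p = 0.0107). The median over the 14 was −0.33.

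The difference from these genes was tested by scaling each array to their mean log2 signal in place of the 75th percentile. On that scale Tfrc averaged 0.22 ± 0.43 in adult livers and 2.71 ± 0.15 in neonatal livers, and it fell by 2.49 (adjusted p = 3.28e-05). Relative to E12.5, at 3.59 ± 0.49, the adult level fell by 3.36 (adjusted p = 7.31e-07). Neonatal liver was then called lower than E12.5 (difference −0.87, adjusted p = 0.0283) and lower than E14.5 (difference −0.86, adjusted p = 0.0305).

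**Figure D4:**
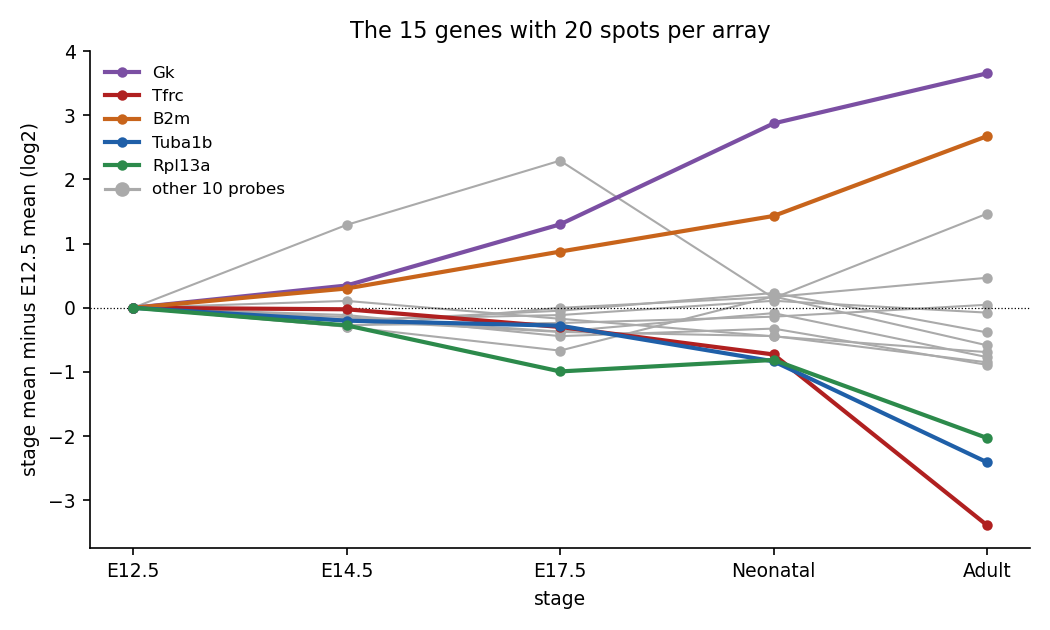
Stage means of the 15 genes with 20 spots per array, each minus its own E12.5 mean (log2). Tfrc follows Tuba1b up to birth and ends lowest, at −3.39 in adult liver, while Gk and B2m end highest. Tuba1b and Rpl13a also end low, at −2.41 and −2.03.

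Other genes of iron handling and of red cells could not be set beside Tfrc. Symbols came from matching accessions, which named 112 genes on the array. Of the 12 genes listed for the transferrin cycle Tfrc was the only one so named, and none of 16 genes of iron storage, export and sensing, 14 of heme synthesis and breakdown or 26 of erythroid cells was, so these are not analysed here. The share of red cell precursors in each liver was therefore not measured, and in whole-liver RNA fewer cells of a type and less RNA per cell cannot be told apart. The liver label could not be checked by defining hepatocyte genes such as Alb either. Of 11 hepatocyte markers 1 was measured, Hmgcs1, an enzyme of sterol synthesis that other cells also make. It averaged 8.86 ± 0.36 in adult and 5.76 ± 0.33 in neonatal liver (difference 3.1 ± 0.28, limma's adjusted p = 1.91e-06), and its neonatal minus E17.5 difference was −2.12 ± 0.28 (adjusted p = 0.000305). Some markers of other cells were also named. Ccl21b and Ccl21c, lymphatic chemokines with near-identical copies, were 2.39 and 1.63 higher in adult than in neonatal liver. B2m, listed for blood cells other than erythroid ones, was 1.24 higher, and Amy2a5, a pancreatic amylase, differed by −3.77. All of these differences were called. Their part in the Tfrc difference was not tested.

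Of 24 genes listed for growth and proliferation 4 were measured. From neonatal to adult liver 3 were called lower and 1 higher, with a median of −1.51, where 25.9% of all features were called and 13.4% were called lower. Tuba1b and the core histone genes H2ac19 (−1.44 ± 0.32, adjusted p = 0.00452) and H2ac23 fell, and H2ac18, also a core histone gene, rose (1.15 ± 0.24, adjusted p = 0.00289). H2ac23 was not well above background on any adult array. It was at least 5.1-fold lower there than in neonatal liver, taking the faintest probe well above background on each adult array as the floor. This bound was not tested. Its measured means were −3.82 in adult and −1.01 in neonatal liver. The test was of this measured difference (−2.81, limma's adjusted p = 0.000296), which rests on adult values at background. Histone and tubulin genes have near-identical copies that a probe may also read.

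Among the 78 tested probes with a symbol besides that of Tfrc, the profile most like it over the 15 arrays was that of Tuba1b (Pearson r = 0.978). H2ac23 (0.95), Ccdc82, a coiled-coil domain gene (0.935), H2ac19 (0.934) and Gm4312, a predicted gene (0.907), came next. H2ac23 was not well above background on any adult array, so its place rests in part on values at background. Tuba1b read 9.98, 9.15 and 9.13 on the E12.5 arrays, 8.68, 8.60 and 8.48 after birth and 7.26, 6.73 and 7.04 in adults. Like Tfrc, it was high in these scaled values on E12.5 replicate 1 and on E17.5 replicate 3 (9.62, against 8.63 and 9.18 on the other E17.5 arrays). Before scaling neither gene stood out on E12.5 replicate 1. Tuba1b read 155735 there, against 164307 and 161958 on replicates 2 and 3, and Tfrc 112036, against 113800 and 107146. After quantile normalization r was 0.978 for Tuba1b. Over the 12 arrays before adulthood, a subset chosen after seeing the data, r was 0.958 for Tuba1b, 0.942 for Ccdc82, 0.802 for H2ac23, 0.788 for H2ac19 and 0.659 for Gm4312. The arrays share the scaling and the scan, and their part in the likeness was not tested. The symbols least like Tfrc were Csprs (−0.853), Tmlhe, an enzyme of carnitine synthesis (−0.843), and B020031M17Rik (−0.836). Csprs was well above background on no array of E12.5, E14.5 or neonatal liver, so its place in this order rests largely on values at background.

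**Figure D5:**
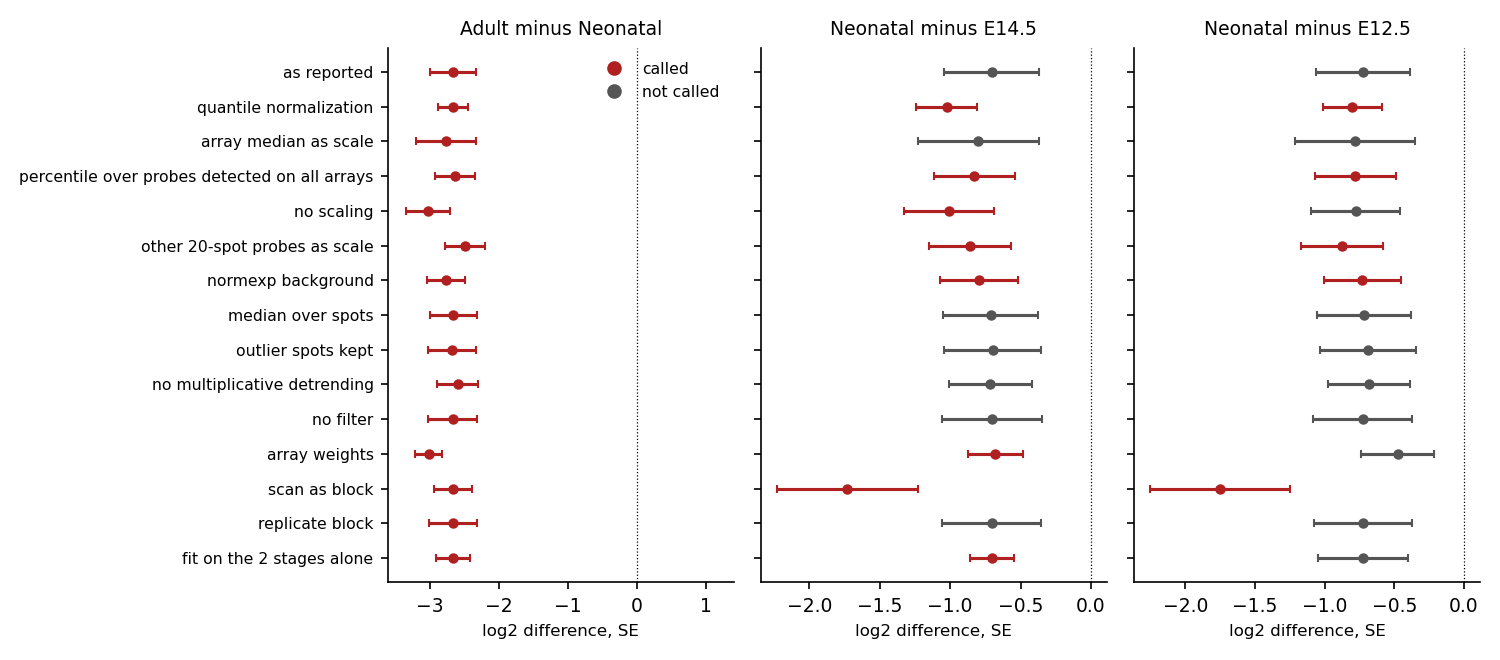
Tfrc differences (log2, with SE) under each way of processing, for adult minus neonatal, neonatal minus E14.5 and neonatal minus E12.5; red points are called at an adjusted p below 0.05. The adult fall lies between −3.03 and −2.49 and is called in every setting plotted, while the neonatal differences change between called and not called.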

How the data were processed

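Whole-liver RNA of 15 samples was measured on 1-colour arrays. Per the labels' protocols, RNA was depleted of ribosomal RNA and labelled by random priming. Per the file headers, the deposited intensity values were read with Feature Extraction 11.0.1.1 (the submitters' processing notes name 10.7.3.1), background-subtracted, and multiplicatively detrended on 6 arrays of the second scan. The authors' deposited log2 value table of 29158 probes holds neither the Tfrc probe nor any other probe with 20 spots, and it was not used.

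Stages and replicates came from sample titles. Control and outlier spots were left out, spots of a probe were averaged, and log2 signal minus the array's 75th percentile was fitted with limma 3.58.1 (lmFit and eBayes, two-sided, R 4.3.3) over all 15 arrays, each stage having its own mean. No block was used. Benjamini-Hochberg adjustment ran within each comparison over 37361 probes. The fit was tested on simulated data of independent normal values. These held no effect of scan or scaling, so that test does not bear on either. Of 123 probes with a RefSeq accession 116 were given a symbol (assembly GRCm38.p6). The number of arrays limits the precision.

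The genes open to naming were the probes with 20 spots, the measured genes of listed pathways and markers, and the 5 most and 3 least similar symbols and 3 most similar unnamed features by Pearson r. The gene, lists and tests were chosen with earlier results of these data known. Alternatives covered scaling, background, filter, spots, weights, scan, replicate number and single arrays.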

Additional observations from a re-analysis of the deposited data

How the results depend on the processing

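The 4 adult differences and the F test kept direction and call in each alternative run. Adult minus neonatal ranged from −3.03 to −2.49 (−2.82 to −2.44 on leaving out 1 array, adjusted p at most 0.000462), adult minus E12.5 from −4.41 to −3.28 (−3.56 to −3.08), adult minus E14.5 from −4.39 to −3.31 (−3.52 to −3.15) and adult minus E17.5 from −3.77 to −3.0 (−3.33 to −2.75). Neonatal minus E12.5 gained a call with quantile normalization (−0.80), the percentile over probes detected on all arrays (−0.78), the other 20-spot probes as scale (−0.87), normexp (−0.73) and the scan as a block (−1.75), but not on leaving out any array other than E17.5 replicate 3 (−0.90 to −0.42). Neonatal minus E14.5 gained one in the same order with −1.03, −0.83, −0.86, −0.80 and −1.73, and also with no scaling (−1.01), array weights (−0.68) and the 2 stages alone (−0.70), but not without any array (−0.76 to −0.61). Neonatal minus E17.5 gained one with quantile normalization only (−0.74; −0.67 to −0.09 on leaving out 1 array). The slope gained one with quantile normalization (−0.27), the percentile over detected probes (−0.26), no scaling (−0.29), the other 20-spot probes (−0.30), normexp (−0.25) and the scan block (−0.59), and ranged from −0.30 to −0.15 without 1 array. E14.5 minus E12.5 stayed uncalled and was positive with quantile normalization (0.23), the array median (0.015), the percentile over detected probes (0.046), no scaling (0.23), normexp (0.065), outlier spots kept (0.011), no multiplicative detrending (0.035) and array weights (0.20), and −0.20 to 0.28 without 1 array. E17.5 minus E12.5 was also uncalled (−0.64 to, without E12.5 replicate 1, 0.0087). Causes were not tested. The setting without detrending was chosen after seeing the data, normexp ran on the median spot signal, and the authors' table lacks Tfrc. Replicate numbers did not pair the arrays (deviations correlated above 0.1 in 7 of 30 same-numbered pairs), and the replicate block changed no Tfrc call (adult minus neonatal −2.66, adjusted p = 0.000176).

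Features called numbered 1843 for E14.5 minus E12.5 (673 without E14.5 replicate 1, 6227 with array weights), 2656 for E17.5 minus E14.5 (1135 with no scaling, 3956 with array weights), 6748 for neonatal minus E17.5 (2196 within the second scan, 13309 without E17.5 replicate 3), 6335 for E17.5 minus E12.5 (2085 with the 2 stages alone), 15652 and 16063 for neonatal minus E12.5 and E14.5 (5399 and 4464 with the scan block, 24157 for E14.5 with array weights), 18981 and 18533 for adult minus E12.5 and E14.5 (11844 and 10686 with the scan block, 27804 for E14.5 with array weights), 9664 for adult minus neonatal (21408 with array weights) and 17322 for the slope (6089 with the scan block). Scaling to the array median moved the median over all features by −0.28 for E17.5 minus E14.5, and no scaling by −0.67 for adult minus E14.5.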

Other observations

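The features whose profile was most like that of Tfrc carried no gene symbol, but of the 37360 features compared only 78 probes carried one. Over the 15 arrays MM9LINCRNAEXON10292-_P1, a lincRNA exon probe, correlated with Tfrc at 0.993, and the probes ASMM9PARTA029667 and ASMM9PARTA005438 at 0.992 and 0.991. Their adult minus neonatal differences were −2.91, −2.08 and −2.11 on the log2 scale, all called. Among the 37360 features set beside Tfrc, 370 correlated above 0.95, which is 0.99%, and 10 of the 1874 lincRNA exon probes did, which is 0.534%. These are descriptions over arrays that share scaling and scan.

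The spread of Tfrc at E12.5 depended on the scaling. The SD of its log2 signal was 0.05 with no scaling, 0.14 after quantile normalization, 0.49 relative to the other 20-spot probes and 0.53 relative to the 75th percentile, which was 154.5 on replicate 1 and 288.3 and 288.7 on replicates 2 and 3. Adult livers showed the reverse, with an SD of 0.64 unscaled and 0.39 scaled, and their 75th percentiles were 161.8, 231.7 and 144.7.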
